A study of Mus musculus with 10 samples.

Results

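Heat shock factors are transcription factors that bind heat shock elements, repeats of the bases GAA in alternating orientation, as trimers or mixed complexes. Held inactive by chaperones in unstressed cells, HSF1 drives the chaperone genes after heat, while HSF2 acts in development and in germ cells, HSF4 in the lens, and HSF5 in male meiosis. HSBP1 is a small coiled-coil protein that binds the trimerization region of HSF1 and holds back its activity. Here their genes Hsf1, Hsf2, Hsf4, Hsf5 and Hsbp1 were taken by symbol from the gene rows of the count table, 5 of 55401 genes, each with 1 row. All 5 had counts, and 4 of them, all but Hsf4, passed the filter on low counts.

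The RNA came from round spermatids, which are male germ cells just past meiosis, of adult male CD1 mice, an outbred stock. Under isoflurane, the testes of 5 mice were kept in contact with water at 33 °C and those of 5 other mice with water at 42 °C, in each case for 30 minutes. The mice woke from the anaesthesia and were then killed without delay so that round spermatids could be isolated, so both groups had been anaesthetized and handled, and no group was left without a water bath. Total RNA depleted of ribosomal RNA was sequenced, with 1 library per mouse, and the comparison asks whether a short heating of the testis changed the RNA of these genes by the time the cells had been isolated.

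Total counts were 92311183 to 117723075 per library at 33 °C and 60623568 to 102086073 at 42 °C, the lowest being 42 °C replicate 2. That library stood apart in its share of counts on transposable elements (TE), 16.2% against 4.62% to 9.07% in the other 9. Of the markers of round spermatids, 24 were in the table and all had a mean of at least 1 CPM (counts scaled to library size by TMM, a normalization that trims extreme features, and given per 1000000), with a summed level of 7204 to 9547 CPM at 33 °C and 6325 to 9493 CPM at 42 °C. Markers of spermatocytes, the meiotic cells before them, summed to 2258 to 2580 CPM and 1740 to 2367 CPM, and markers of elongating spermatids, the stage after them, to 7912 to 11326 CPM and 7745 to 14827 CPM. The lists for spermatogonia and for Sertoli, Leydig, peritubular, endothelial and erythroid cells summed to at most 43.6 CPM in any library. Markers of macrophages and other leukocytes summed to 82.0 to 101 CPM at 33 °C and 49.4 to 78.8 CPM at 42 °C, most of it from Fcgr3, an Fc receptor (65.4 CPM on average over the 10 libraries). No list had a marker at 0 in all 10 libraries.

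The members spanned a very wide range of RNA levels in round spermatids. Per kilobase (kb) of annotated exon, the level at 33 °C was 246 ± 19.4 CPM for Hsbp1, 172 ± 16.8 for Hsf5, 9.91 ± 2.49 for Hsf2, 7.96 ± 0.755 for Hsf1 and 0.0183 ± 0.0143 for Hsf4 (SD, n = 5). In that order Hsbp1 and Hsf5 stood above 99.4% and 98.9% of the 24852 tested genes with an exon length, and Hsf2 and Hsf1 above 79.6% and 76.7%. Hsf2 and Hsf1 were neighbours in the order whose libraries overlapped at 33 °C, from 6.51 to 12.7 CPM per kb for Hsf2 and from 7.32 to 9.14 for Hsf1, and not at 42 °C, where Hsf2 ran from 8.46 to 11.1 and Hsf1 from 5.91 to 7.43. The other neighbours did not overlap in either group, apart from Hsbp1 and Hsf5 at 42 °C, where Hsbp1 ran from 164 to 248 CPM per kb and Hsf5 from 88.4 to 164.

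These per-length levels depend on the transcript models, since the annotation gives Hsf1 16 transcripts, Hsf2 6, Hsf4 7, Hsbp1 4 and Hsf5 1. Per kb of the longest coding transcript the levels at 33 °C were 378 CPM for Hsbp1, 172 for Hsf5, 36.6 for Hsf2, 26.9 for Hsf1 and 0.0184 for Hsf4. The order was the same, and the gap between Hsf5 and the pair Hsf1 and Hsf2 was smaller. Which transcripts of each gene were present cannot be read from counts per gene.

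The 250 bases before the RefSeq start sites of Hsf2, Hsf5 and Hsbp1 are shown because heat shock elements are the sites that these factors bind. The window of Hspa1a, the inducible HSP70 gene and a classical HSF1 target, is shown for comparison. The sequences are from RefSeq on GRCm38.p6, read 5′ to 3′ on the strand of the gene. Capitals mark a match to 2 adjacent inverted units, GAANNTTC or TTCNNGAA, searched on both strands. The Hsf2 window is chr10:57486135-57486384, plus strand, that of Hsf5 is chr11:87616914-87617163, plus strand, that of Hsbp1 is chr8:119344288-119344537, plus strand, and that of Hspa1a is chr17:34972157-34972406, minus strand. RefSeq starts Hsbp1 downstream of the start in the count table, so the 3′ end of its window lies inside the gene as given below.
Hsf2: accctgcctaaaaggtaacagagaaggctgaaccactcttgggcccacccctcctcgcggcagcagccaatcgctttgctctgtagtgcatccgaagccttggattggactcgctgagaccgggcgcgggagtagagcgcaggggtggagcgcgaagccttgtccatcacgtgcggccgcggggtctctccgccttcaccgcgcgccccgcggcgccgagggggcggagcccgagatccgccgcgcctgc
Hsf5: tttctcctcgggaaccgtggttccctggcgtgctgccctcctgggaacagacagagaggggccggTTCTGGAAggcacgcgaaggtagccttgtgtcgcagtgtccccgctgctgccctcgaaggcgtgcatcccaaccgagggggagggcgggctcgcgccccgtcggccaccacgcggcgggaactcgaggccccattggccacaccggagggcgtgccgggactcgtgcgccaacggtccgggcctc
Hsbp1: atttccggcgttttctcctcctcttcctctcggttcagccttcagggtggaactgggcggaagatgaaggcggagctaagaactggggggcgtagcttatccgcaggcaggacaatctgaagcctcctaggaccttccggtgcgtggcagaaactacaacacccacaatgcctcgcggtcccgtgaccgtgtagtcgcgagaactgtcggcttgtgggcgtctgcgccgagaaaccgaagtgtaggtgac
Hspa1a: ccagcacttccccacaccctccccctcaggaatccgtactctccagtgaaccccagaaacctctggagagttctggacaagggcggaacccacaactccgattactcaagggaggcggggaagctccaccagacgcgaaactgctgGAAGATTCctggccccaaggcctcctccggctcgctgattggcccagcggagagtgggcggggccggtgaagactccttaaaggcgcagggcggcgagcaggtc

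The Hsf5 window held 1 match, TTCTGGAA at position -185 from the start site, and the Hspa1a window held 1, GAAGATTC at position -104. The windows of Hsf2 and Hsbp1 held none. Of 32851 windows of this length in the table, 12.8% held a match to at least 1 of the 2 patterns, which overlap where 3 units follow each other. The forms with 3 units in a row, in either orientation, were in 0.466% of all windows and in none of these 4. Of the 5 members, 3 were matched in the table of windows, and Hsf1 and Hsf4 were not.

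Hsf1 RNA, which encodes the main activator of the heat shock response, was found in every library (ENSMUSG00000022556, GRCm38 chromosome 15, 76477422 to 76501913, plus strand). At 33 °C its level was 64.9 CPM in replicate 1, 58.4 in replicate 2, 52.1 in replicate 3, 55.3 in replicate 4 and 52.0 in replicate 5. At 42 °C it was 45.8, 43.5, 52.7, 41.9 and 48.5 CPM in replicates 1 to 5. In the heated group 4 libraries lay under the lowest 33 °C library, and replicate 3, above 2 of the control libraries, was the only heated one inside their range. The group values were 56.5 ± 5.36 CPM at 33 °C and 46.5 ± 4.28 CPM at 42 °C (SD, n = 5 each).

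For Hsf1 the fold at 42 °C was 0.822, with a 95% interval of 0.699 to 0.967. On the log2 scale this was -0.28 with an SE of 0.11, and it did not pass after adjustment over all features (genes and TE subfamilies) tested (edgeR adjusted p = 0.393). It was negative in all 18 alternatives, from -0.33 to -0.23, with adjusted p-values from 0.115 to 0.799.

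Hsf1 starts 144 bases from Bop1, a ribosome biogenesis gene on the opposite strand, and ends 101 bases from the end of Dgat1, an enzyme of triglyceride synthesis. Bop1 averaged 53.5 ± 5.12 CPM in the controls and 45.6 ± 2.94 CPM after heating (log2 -0.23, SE 0.10, edgeR adjusted p = 0.430, and -0.14 without 33 °C replicate 2). The ratio of Hsf1 to Bop1 counts ran from 0.966 to 1.14 in the controls and from 0.968 to 1.05 after heating, so these neighbours had similar counts in all 10 libraries. Pearson's r of their log2 CPM over the libraries was 0.928. It was 0.949 between Hsf1 and Catsperg2, a gene of chromosome 7 that was the closest of 11949 genes in these same libraries. A gene picked in that way cannot show whether the likeness to Bop1 was unusual, which was not tested. Dgat1 had a log2 value of -0.15 (SE 0.13, edgeR adjusted p = 0.601), which ran from -0.23 to -0.07 when 1 library was left out. The spans do not overlap, and the strand setting of the counting is not given in the sources used here.

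**Figure D1:**
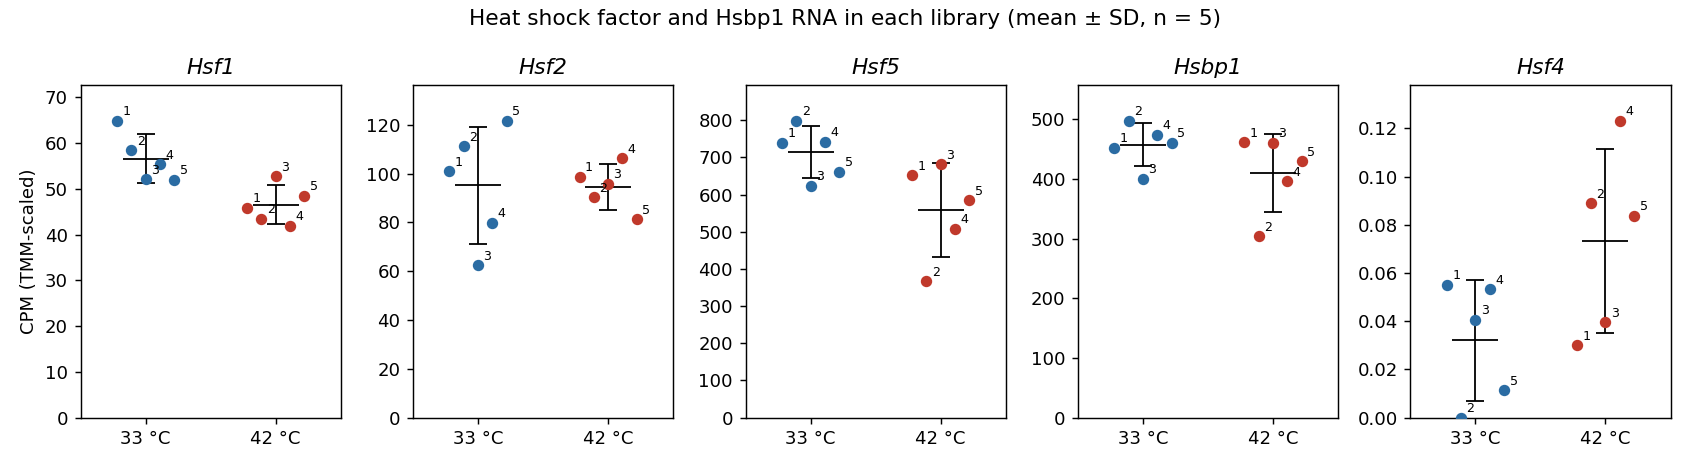
Level of each member in CPM (vertical axis from 0, its own scale in each panel) by group. Points are the 5 libraries of each group, labelled by replicate, and the bar with whiskers is the mean ± SD. For Hsf1, 4 of the 5 libraries at 42 °C lie under all libraries at 33 °C. For Hsf5 and Hsbp1, 42 °C replicate 2 is the lowest of all 10 libraries, and Hsf4 is under 0.13 CPM throughout.

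Hsf2 RNA, for the factor long linked to spermatogenesis, had nearly the same mean in the heated and control groups (ENSMUSG00000019878, chromosome 10, 57486385 to 57513135, plus strand). At 33 °C the values were 101 CPM in replicate 1, 111 in replicate 2, 62.6 in replicate 3, 79.9 in replicate 4 and 122 in replicate 5. At 42 °C they were 98.6, 90.3, 95.9, 106 and 81.3 CPM in replicates 1 to 5. All 42 °C libraries lay within the 33 °C range, which was the wider: the coefficient of variation was 25.1% at 33 °C and 9.90% at 42 °C. The summed round spermatid markers ranked the control libraries in the same order as Hsf2, at 7933, 9054, 7204, 7333 and 9547 CPM in replicates 1 to 5. They ranked the heated libraries in another order, at 8486, 6325, 8711, 9493 and 8260 CPM. Neither the difference in spread between the groups nor its relation to these markers was tested.

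The means for Hsf2 were 95.2 ± 23.9 CPM and 94.5 ± 9.35 CPM, and the 95% interval of the fold at 42 °C was 0.771 to 1.28. The log2 value was -0.01 (SE 0.17, edgeR adjusted p = 0.979), and it turned positive with the size factors of DESeq2 (0.00037), with TMM from genes only (0.00078) and with library totals (0.050). Rises or falls within that interval are compatible with the values of these 10 mice. The noncoding gene 4930467K11Rik, which starts 33 bases from Hsf2 on the opposite strand, was at 2.74 ± 0.482 CPM and 3.40 ± 1.11 CPM (log2 0.31, SE 0.22, edgeR adjusted p = 0.554). That value was 0.04 with limma voom and 0.20 and 0.19 without 42 °C replicates 2 and 4.

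Hsf5 had by far the most counts of the 4 factors, 345004 over the 5 control libraries and 259697 over the 5 heated ones (ENSMUSG00000070345, chromosome 11, 87617164 to 87659542, plus strand). Its protein is needed for the progress of spermatocytes through meiosis in mice. At 33 °C the level was 739 CPM in replicate 1, 799 in replicate 2, 624 in replicate 3, 742 in replicate 4 and 661 in replicate 5. At 42 °C it was 653, 368, 682, 508 and 584 CPM in replicates 1 to 5. All 5 heated libraries were under the control mean and 3 were under the lowest control library, while replicates 1 and 3 lay inside the control range.

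The means for Hsf5 were 713 ± 69.8 CPM and 559 ± 126 CPM, a fold of 0.783 with a 95% interval of 0.614 to 0.999. On the log2 scale this was -0.35 with an SE of 0.16, which did not pass after adjustment (edgeR adjusted p = 0.435). Without 42 °C replicate 2, the library with the highest TE share, the value was -0.21 (SE 0.11, edgeR adjusted p = 0.508). Over all 18 alternatives it ran from -0.44 to -0.21. Mtmr4, a lipid phosphatase gene that ends 861 bases before Hsf5 on the same strand, had -0.15 (SE 0.12, edgeR adjusted p = 0.597), and -0.06 without 42 °C replicate 2.

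Spermatocyte markers moved with Hsf5 across the libraries. Their summed level at 42 °C was 2367, 1740, 2299, 1826 and 2115 CPM in replicates 1 to 5, so the libraries with the lowest sums, replicates 2 and 4, were also those with the least Hsf5. Among the heated libraries, replicates 2 and 4 also had the least Hsf1 and the least Hsbp1. Heated replicate 2 was also the lowest of all libraries in summed round and elongating spermatid markers, at 6325 and 7745 CPM. Its low values were therefore not particular to Hsf5 or to spermatocyte markers. Its Hsf2 level, 90.3 CPM, lay inside the range of the other heated libraries. Heated replicate 4 was not low in the later markers. Its round spermatid sum, 9493 CPM, was the highest of the heated libraries, and its elongating spermatid sum was 11888 CPM. At 33 °C the spermatocyte sums were 2354, 2554, 2283, 2580 and 2258 CPM. Of 26 tested markers in that list 19 had a negative log2 fold change, 0 passed the test and the median was -0.16. Over all genes tested, 53.0% were negative. By sign, the lists of the later germ cells leaned the opposite way, with 18 of 24 round spermatid markers positive (median 0.26) and 18 of 20 elongating spermatid markers positive (median 0.32), and 0 of these passed. The summed level of the round spermatid list was nearly the same in both groups, with a mean of 8214 CPM at 33 °C and 8255 CPM at 42 °C. Relative to the summed spermatocyte markers of the same library, the log2 level of Hsf5 was 0.15 lower at 42 °C (difference -0.15, two-sided exact permutation p = 0.103, adjusted p = 0.275 over 8 such ratios). For Hsf1 the same difference was -0.06 (exact permutation p = 0.524), for Hsf2 0.25 (0.302) and for Hsbp1 0.06 (0.405), with exact permutation tests throughout. Relative to the summed markers of elongating spermatids all 4 members had a negative difference: -0.54 for Hsf5 (exact permutation p = 0.0476, adjusted p = 0.275), -0.44 for Hsf1 (0.0794), -0.33 for Hsbp1 (0.143) and -0.14 for Hsf2 (0.548). All 4 share this denominator, whose mean was higher after heating (10816 CPM, against 9550 CPM in the controls). Their common sign is therefore partly built in and does not show 4 separate falls. For Hsf2 the edgeR log2 fold change, which does not use this denominator, was -0.01. These 8 ratios were chosen after the data had been seen. In these bulk samples fewer spermatocytes and less RNA per cell cannot be told apart, and the part of either in the Hsf5 values was not tested.

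**Figure D2:**
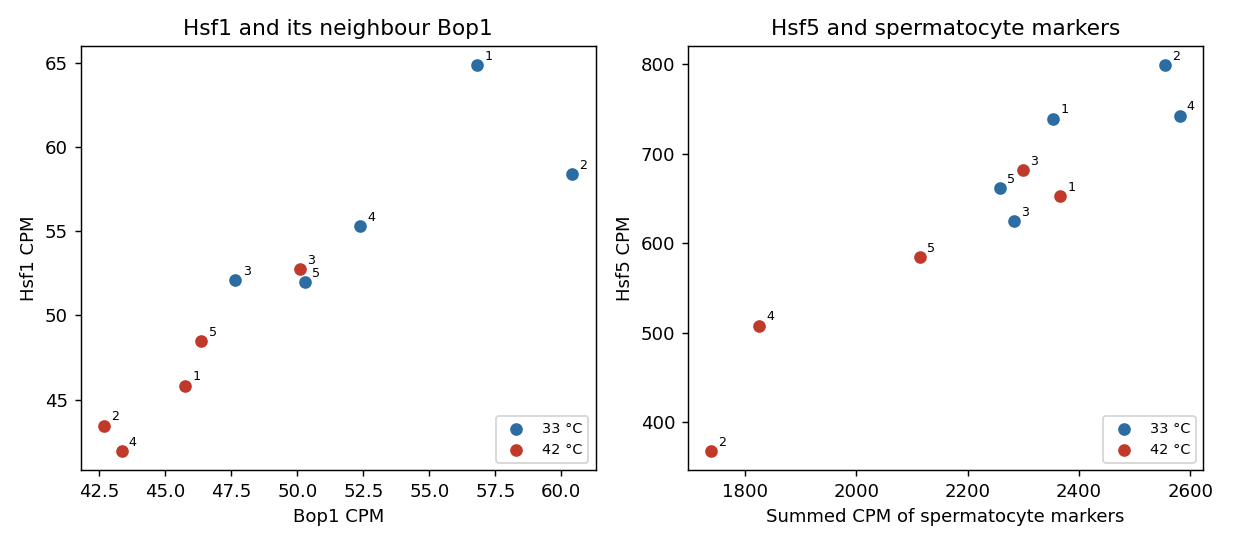
Left, Hsf1 against its neighbour Bop1, both in CPM. Right, Hsf5 in CPM against the summed CPM of 27 spermatocyte markers. Points are the 10 libraries, labelled by replicate and coloured by group, and the axes do not start at 0. The heated libraries 2 and 4 lie lowest on both axes at right, at 368 and 508 CPM of Hsf5, and the 10 libraries at left lie close to a line with as much Hsf1 as Bop1.

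Hsbp1 RNA, for the inhibitor of HSF1, was the most abundant of the members per kb (ENSMUSG00000031839, chromosome 8, 119344488 to 119348922, plus strand). At 33 °C it stood at 452 CPM in replicate 1, 498 in replicate 2, 400 in replicate 3, 474 in replicate 4 and 461 in replicate 5. At 42 °C it stood at 462, 304, 461, 396 and 429 CPM in replicates 1 to 5. Replicate 2 was well under all control libraries, replicate 4 just under them, and the other 3 heated libraries lay inside the control range.

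The Hsbp1 means were 457 ± 36.0 CPM and 410 ± 65.2 CPM, with a 95% interval of the fold from 0.739 to 1.09. On the log2 scale the difference was -0.16 (SE 0.13, edgeR adjusted p = 0.603), and it came to -0.04 without 42 °C replicate 2 (edgeR adjusted p = 0.895). No other gene of the table lay within 1000 bases of it.

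Hsf4, the lens factor, was close to silent (ENSMUSG00000033249, chromosome 8, 105269801 to 105275845, plus strand). Its raw counts at 33 °C were 5, 0, 4, 5 and 1 in replicates 1 to 5, and at 42 °C they were 3, 6, 4, 11 and 8. The count of 0 in 33 °C replicate 2 allows up to 0.0272 CPM, a limit for counting error only. The group sums were 15 and 32 counts, or 0.0321 ± 0.0251 CPM and 0.0731 ± 0.0382 CPM, and the groups overlapped. Fitted with no filter, which keeps 46495 features, its log2 difference was 1.22 (SE 0.65, edgeR adjusted p = 0.556). Its same-strand neighbours Fbxl8, 474 bases before it, and Nol3, 294 bases after it, had 93 and 3 counts over the control libraries and 80 and 16 over the heated ones.

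No member passed the test after adjustment. The background was 24 of 26025 features called in either direction, or 0.0922%, with 0.0884% higher and 0.00384% lower at 42 °C. DESeq2 called 1.02% of the features it adjusted and limma voom 0.588%, and neither called a member. At an unadjusted p under 0.05, 2 of the 4 tested members were lower, Hsf1 and Hsf5, where 2.94% of all features were lower and 8.56% higher. The median log2 fold change of the 4 was -0.22, all 4 being negative, against -0.01 for all features tested, of which 51.1% were negative. These signs are not all separate. Pearson's r of log2 CPM was 0.957 for Hsf5 with Hsbp1, 0.790 for Hsf1 with Hsf5 and 0.620 for Hsf1 with Hsbp1. It was at most 0.278 for Hsf2 with any of them. The Hsf2 value, -0.01, turned positive in 11 of 18 alternatives. The number of members at an unadjusted p under 0.05 ran from 0 to 2 over the alternatives. It was 0 when the control library 1 or 2 or the heated library 4 was left out, in the fit of all features unfiltered, and with the replicate number as a block.

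**Figure D3:**
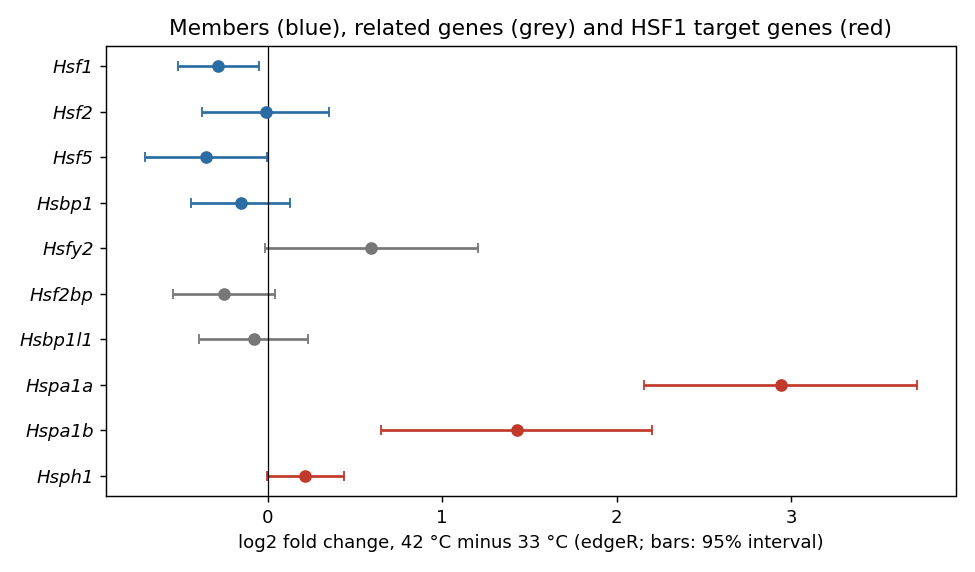
Log2 fold change at 42 °C against 33 °C from the edgeR fit (horizontal axis) with its 95% interval, for the 4 tested members (blue), 3 related genes (grey) and 3 HSF1 target genes (red). Hspa1a, at 2.94, is the 1 gene shown that passed the test. The intervals of Hsf2 and Hsbp1 span 0, and those of Hsf1 and Hsf5 end just under it.

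Ratios between the members of the same library do not depend on how libraries are scaled, and 10 such ratios were compared. The ratio of smallest p was that of Hsbp1 to Hsf5. Its log2 value at 33 °C was -0.71, -0.68, -0.64, -0.65 and -0.52 in replicates 1 to 5, and at 42 °C -0.50, -0.27, -0.57, -0.36 and -0.44. The heated libraries were higher, with 4 of 5 above every control library and replicate 3 within their range. The difference was 0.21 (two-sided exact permutation p = 0.0159, adjusted p = 0.159 over the 10 ratios), so it did not pass. The smallest p that this test can give is 0.00794.

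None of the other ratios passed either. Hsbp1 to Hsf1, the inhibitor to the factor it is known to hold back, was 3.02 ± 0.143 at 33 °C and 3.13 ± 0.198 at 42 °C on the log2 scale (exact permutation p = 0.294, adjusted 0.367). Hsbp1 to Hsf2 was 2.30 ± 0.314 and 2.11 ± 0.272 (exact permutation p = 0.333, adjusted 0.370). Hsf5 to Hsf2 was 2.94 ± 0.347 at 33 °C and 2.54 ± 0.373 at 42 °C on the log2 scale (exact permutation p = 0.0952, adjusted 0.190). Hsf2 to Hsf1 was 0.72 ± 0.371 and 1.02 ± 0.230 (exact permutation p = 0.159, adjusted 0.265). Hsf5 to Hsf1 was 3.66 ± 0.111 and 3.56 ± 0.285 (exact permutation p = 0.643), and the difference changed sign, to 0.022, without 42 °C replicate 2. The 4 ratios that involve Hsf4 rest on 0 to 11 counts per library, and their adjusted permutation p-values were 0.190 to 0.272.

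**Figure D4:**
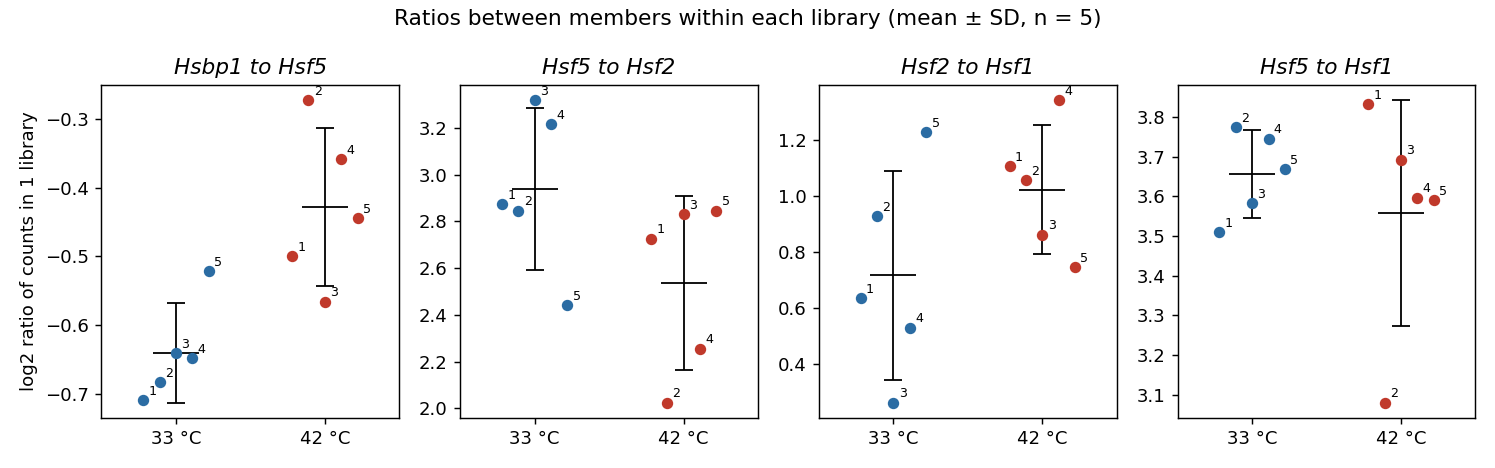
Log2 ratio of the counts of 2 members in the same library (vertical axis, not starting at 0, its own scale in each panel) by group. Points are libraries labelled by replicate, and the bar with whiskers is the mean ± SD (n = 5). In the panel of Hsbp1 to Hsf5, 4 of 5 heated libraries lie above all control libraries, and in the other 3 panels the groups overlap more.

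Other genes of the heat shock factor family and its partners did not pass the test either. Hsfy2, a testis-expressed relative of the heat shock factors, averaged 66.9 ± 32.6 CPM in the controls and 101 ± 28.5 CPM after heating. Its control libraries ran from 38.0 to 122 CPM and its heated ones from 84.1 to 152 CPM, with 33 °C replicate 5 alone among the controls inside the heated range. On the log2 scale the difference was 0.59 (SE 0.28, edgeR adjusted p = 0.445), and 0.97 without that control library (edgeR adjusted p = 0.0713). Hsf2bp, whose protein was found as a partner of HSF2 and acts in meiotic recombination, was at 57.2 ± 5.10 and 48.1 ± 8.53 CPM (log2 -0.25, SE 0.13, edgeR adjusted p = 0.474, and -0.14 without 42 °C replicate 2). Hsbp1l1, the paralog of Hsbp1, was at 6.97 ± 0.818 and 6.59 ± 0.897 CPM (log2 -0.08, SE 0.14, edgeR adjusted p = 0.801), and its direction turned without 42 °C replicate 2 (0.0060). Hsf3 had 2 counts in each group and was not tested.

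Over the 10 libraries, the genes whose level followed each member most closely were found by Pearson's r of log2 CPM among 11949 named genes with a mean of at least 1 CPM. All of these profiles share the same libraries and scaling, and r is given as a description. Closest to Hsf1 were Catsperg2, a subunit of the sperm calcium channel (r = 0.949), and Tnks1bp1, a tankyrase-binding protein (0.944). Closest to Hsf2 were Smco4 (0.983) and the transporter gene Slco6b1 (0.982). Closest to Hsf5 were Tmem97, a membrane protein of sterol handling (0.994), and Ap1m1, a clathrin adaptor subunit (0.994), and closest to Hsbp1 were Supt20, of the SAGA complex (0.993), and Ncbp1, of the nuclear cap-binding complex (0.992). Catsperg2 averaged 306 ± 21.7 CPM in the controls and 256 ± 27.9 CPM after heating, and the groups did not overlap (log2 -0.26, edgeR adjusted p = 0.419), a pattern that 0.68% of all features shared in that direction. Because Catsperg2 was picked for its likeness to Hsf1 in these same libraries, its pattern is not a separate result.

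Among the known targets of HSF1, Hspa1a rose in the edgeR test and the other 31 of 32 tested genes did not pass it. Few features passed at all, with 0.0884% of those tested called higher and 0.00384% lower at 42 °C. Hspa1a was at 0.181 to 0.417 CPM in the control libraries and at 1.17 to 3.78 CPM in the heated ones, so the groups did not overlap, which held for 1.32% of all features in this direction. It rose by 2.94 on the log2 scale (SE 0.36, edgeR adjusted p = 0.0106). Hspa1b, its near-identical neighbour with which reads may be shared, was at 2.40 ± 1.06 and 6.45 ± 3.16 CPM (log2 1.43, SE 0.36, edgeR adjusted p = 0.262). It passed with DESeq2 (adjusted p = 0.00857) and missed the threshold with limma voom (adjusted p = 0.0502). Hsph1, an HSP110 chaperone, had 0.22 (SE 0.10, edgeR adjusted p = 0.443). The median over the 32 was -0.06, with 13 positive and 19 negative, against 53.0% negative over all genes tested.

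The genes known to restrain, modify or assist heat shock factors gave no call. Of 40 tested, 0 passed in either direction with edgeR, where 0.0922% of all features were called. At an unadjusted p under 0.05 there were 0 of the 40, where 2.94% of all features were lower and 8.56% higher. The median log2 fold change of the 40 was -0.13, with 32 negative and 8 positive, against 53.0% negative over all genes tested. In the list, 7 genes, among them the HSP90 gene Hsp90aa1 and the co-chaperone gene Dnajb1, are also in the target list. The members of smallest p were Smarca4, the ATPase of a chromatin remodeller (log2 -0.28, SE 0.14, edgeR adjusted p = 0.453), Cdc20, an activator of the anaphase-promoting complex that marks HSF2 for decay (-0.32, SE 0.16, edgeR adjusted p = 0.456), and Plk1, a mitotic kinase that phosphorylates HSF1 (-0.37, SE 0.19, edgeR adjusted p = 0.460). Without 42 °C replicate 2 the value was -0.20 for each of Smarca4, Cdc20 and Plk1.

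The multicopy genes of the sex chromosomes that HSF2 and HSF1 are known to bind in testis, which act in spermatid chromatin, were also not called. Of 6 such genes 5 were tested, all 5 values were positive (median log2 0.42), and 0 passed. Over all genes tested, 53.0% of the values were negative, and 0.0922% of all features were called. Spermatid markers leaned positive as well, with 18 of 24 in the round spermatid list (median 0.26) and 18 of 20 in the elongating one (0.32). The positive sign was therefore not particular to these 5 genes. Sly was at 1.11 ± 0.235 and 1.51 ± 0.350 CPM (log2 0.44, SE 0.22, edgeR adjusted p = 0.456), Slx had 0.42 (SE 0.29, edgeR adjusted p = 0.536) and Slxl1 0.25 (SE 0.18, edgeR adjusted p = 0.554; 0.15 without 33 °C replicate 4). Copies of these genes are nearly identical, so their low counts depend on how reads with several alignments were treated. Of 14 lens genes known to depend on HSF4, 6 were tested and 0 passed, with 2 positive, 4 negative and a median of -0.19. Bfsp1, a lens filament protein, was at 10.5 ± 1.71 and 8.55 ± 1.51 CPM (log2 -0.30, SE 0.16, edgeR adjusted p = 0.476). Dnase2b had 0.51 (SE 0.36, edgeR adjusted p = 0.546) and Bfsp2 0.69 (SE 0.94, edgeR adjusted p = 0.737), both at low levels, with means of at most 0.260 CPM. Bfsp2 ran from 0.37 to 1.64 when 1 library was left out, the highest without 33 °C replicate 5, and was 2.62 with limma voom and 1.76 with the replicate block, while Dnase2b was 0.77 without 33 °C replicate 3 and 0.81 with limma voom.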

How the data were processed

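RNA of round spermatids from 10 mice was measured by sequencing of total RNA depleted of ribosomal RNA, with 5 libraries per group. The authors deposited raw read counts per gene and TE subfamily, with no normalization, which was judged from the values: all are whole numbers and library sums differ. Builds GRCm38 and mm10 and the tools DRAGEN, cutadapt and Trim Galore are listed in the submitters' processing notes. How reads were counted, with which strand setting and with what rule for multiple alignments, is not given in the sources used here. Of 55141 gene identifiers shared with GENCODE M21 (GRCm38), 99.4% had the same position. Exon lengths come from that annotation.

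The main test was the quasi-likelihood test of edgeR (version 4.0.16, run in R 4.3.3). The model held only the group, with TMM factors over genes and TE together, and filterByExpr (minimum count 10, minimum total 15). P-values were adjusted by Benjamini-Hochberg over all 26025 features kept, with a threshold of 0.05. CPM use TMM-scaled library sizes, and 95% intervals use the t distribution of the fit. The script was tested on simulated data. Alternatives were other scalings and filters, DESeq2 1.42.0, limma 3.58.1 (voom with quality weights), a replicate block, and leaving out each library. Ratios used a pseudocount of 0.5 on each count and an exact permutation test over all 252 assignments.

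The members and lists were chosen with earlier results of these data known. The genes named were the 5 members, the tested relatives, the 3 genes of smallest p in each other list with any that passed, the 2 genes of highest r for each tested member, and genes within 1000 bases of a member. The marker gene of highest level is named for 1 list. Hsp90aa1 and Dnajb1 were named after their values were seen. Symk was in a list and not among the genes of the table. The labels give 1 library per mouse. The closest libraries of a group, 42 °C replicates 1 and 3, differed beyond counting noise (chi-square of 13.9 for each degree of freedom) and were kept as separate samples.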

Additional observations from a re-analysis of the deposited data

How the results depend on the processing

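Hsf1, Hsf5 and Hsbp1 kept a negative log2 fold change and missed the threshold in all 18 alternatives each, and Hsf4 kept a positive one and missed it in all 16. Hsf2, at -0.01 with all libraries, turned to 0.00037 with the size factors of DESeq2, 0.00078 with TMM from genes only, 0.050 with library totals, 0.029 with no filter, 0.026 with a mean of at least 1 CPM and 0.023 with the replicate block, and ran from -0.13 to 0.13 when libraries were left out. Smco4, which follows Hsf2, turned to 0.054 with library totals, 0.023 with no filter, 0.026 with a mean of at least 1 CPM, 0.052 with limma voom and 0.061 with the block (-0.17 to 0.20 when libraries were left out), and Slco6b1 to 0.0038 with DESeq2 size factors, 0.0033 with TMM from genes only, 0.051 with library totals, 0.034 with no filter, 0.028 with a mean of at least 1 CPM and 0.015 with the block (-0.11 to 0.12). Fbxl8, at -0.04, turned to 0.029 with library totals and 0.019 with no filter (-0.47 to 0.11), and Hsbp1l1 to 0.043 with limma voom (-0.13 to 0.0060). The log2 ratio of Hsf5 to Hsf1 counts ran from -0.17 to 0.022. The cause of these turns was not tested. A mean of at least 1 CPM left no value for Hsf4. No ratio passed with a pseudocount of 1 or with a library left out.

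The number of features called, 23 higher and 1 lower, was 15 higher with library totals, 73 and 3 with no filter, 2 and 0 with a mean of at least 1 CPM, 307 and 41 with DESeq2 and 124 and 29 with limma voom. Leaving out a library gave 10 to 21 higher and 0 to 2 lower: 12 higher when control library 1 was dropped, 10 for control library 4, 15 for heated library 1 or 4 and 14 for heated library 2 or 5. It gave 0 lower without any 1 of the heated libraries and 2 without 33 °C replicate 4. With the replicate number as a block the counts were 4 and 0. Same-numbered libraries did not deviate together from their group means (r from -0.41 to -0.12), and 0 of the 5 control libraries correlated best with its own number, so the numbers were not taken as pairs. The group spreads limit what could be seen: the 95% intervals of the fold leave room for 0.699 to 0.967 for Hsf1, 0.771 to 1.28 for Hsf2, 0.614 to 0.999 for Hsf5 and 0.739 to 1.09 for Hsbp1, while for Hsf4 the depth, at most 11 counts per library, is the limit.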
